A study of Mus musculus with 5 samples.

Results

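Cadherins and regulators of mesenchymal transition were compared between mouse embryonic stem cells and the same line after 48 hr in N2B27 medium alone. The set was given by name and holds 10 genes, namely the cadherin genes Cdh1, Cdh2, Cdh3 and Cdh5, the repressor genes Zeb1, Zeb2, Snai1 and Snai2, and the mesenchymal genes Vim and Mmp2. All probes whose annotated symbol was one of these names were taken, which gave 17 of the 25697 probes on each array and covered 9 of the 10 genes. Snai2 had no probe under its symbol. RNA came from the 46C line, which carries a Sox1-GFP reporter, on 1 single-colour Illumina array per sample. In the ESC group (n = 2) cells grew without feeders or serum on gelatin in N2B27 medium with LIF and BMP, to which PD173074, an inhibitor of FGF receptors, was added at 100 nM, and the labels call them untreated and pluripotent. In the N2B27 48 hr group (n = 3) the cells were trypsinized, washed and replated for 48 hr in N2B27 alone, a state the labels call competent to respond to differentiation signals. Both groups are the same single line in the same base medium, and the labels do not say whether each replicate was its own culture. The p-values here therefore reflect only spread between samples, and that spread may be technical. The fit also borrowed spread from other probes, with 7.65 prior against 3 residual degrees of freedom.

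Classical cadherins are transmembrane adhesion proteins that bind the same cadherin on the neighbouring cell and are tied to actin through catenins. E-cadherin, encoded by Cdh1, holds epithelia and embryonic stem cell colonies together. In epithelial to mesenchymal transition, as at gastrulation, ZEB and SNAIL zinc finger proteins bind E-box sequences in the promoters of Cdh1 and other epithelial genes and repress them, while N-cadherin, vimentin and matrix metalloproteinases are the textbook markers of the mesenchymal side. The comparison of ESC with N2B27 48 hr asks which of these genes differed in level between the groups. The N2B27 48 hr cells were without LIF, BMP and PD173074 and had been trypsinized and replated. Effects of these steps and of a change of state cannot be told apart here.

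After 48 hr in N2B27, E-cadherin RNA was 1.53-fold higher, while the RNA of its repressor Zeb1 was 4.59-fold lower and that of vimentin 1.82-fold lower. P-cadherin, encoded by Cdh3, was 2.22-fold lower, and Mmp2, a gelatin-degrading metalloproteinase, was 2.46-fold higher. Of the 6 genes with a probe above the detection filter, 2 rose, 3 fell and 1, Zeb2, did not pass the test. Of the other genes with probes, Cdh2 and Cdh5 were detected on 0 arrays and Snai1 on 1. Among all 8828 genes tested, 23.8% rose and 21.4% fell (45.2% in either direction), so that changes of this kind were common on these arrays. The median log2 change was -0.24 over the 6 genes and 0.049 over all genes tested. Of the 8 tested probes of the set 7 passed the test (43.1% of all probes tested did), and all 8 had groups that did not overlap, against 63.2% of the 12605 probes tested on the array. In bulk RNA, fewer cells expressing a gene and less RNA per cell cannot be told apart.

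**Figure D1:**
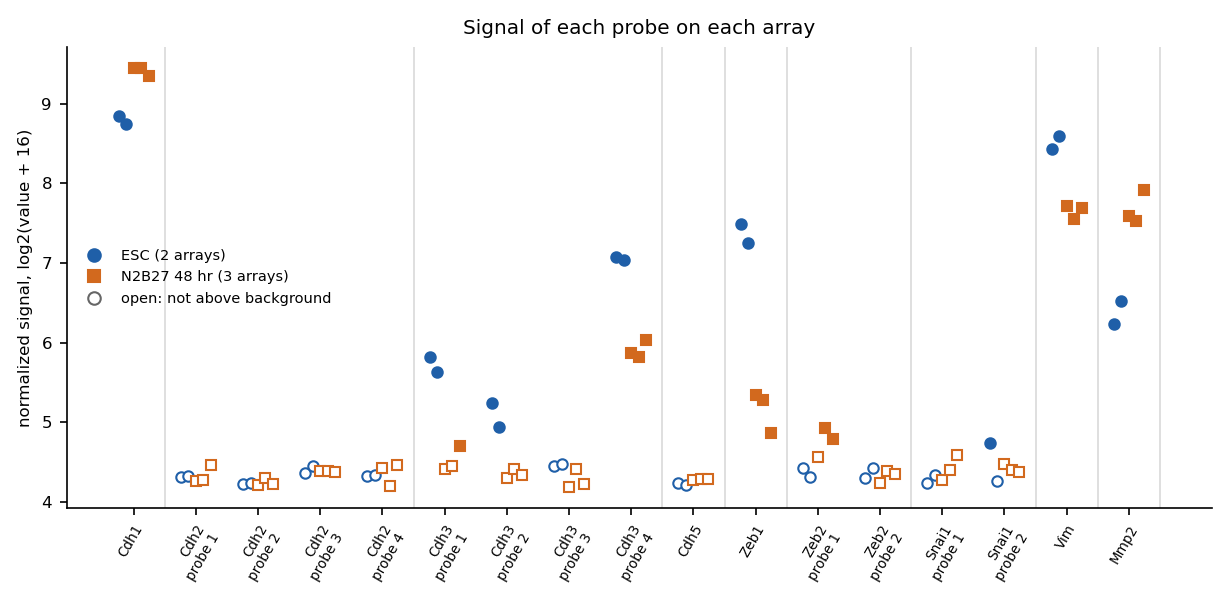
Normalized signal of each of the 17 probes on each array, on the scale log2(value + 16), for the 2 ESC arrays (blue circles) and the 3 N2B27 48 hr arrays (orange squares), with open symbols where the detection p was 0.05 or more. Cdh1 and Mmp2 sit higher on the N2B27 48 hr arrays, Zeb1, Vim and 3 of the 4 Cdh3 probes sit lower, and the probes of Cdh2 and Cdh5 stay at the background level on all 5.

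Signals below are log2 values after background correction and quantile normalization, with an offset of 16 added before the logarithm, so that fold changes of dim probes are understated. A probe counts as detected on an array at a detection p under 0.05, and the lowest detected signals lay between 4.59 and 4.75. Levels of different probes are not comparable, so differences between genes are read below only as a change between groups.

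E-cadherin rose by a moderate amount. Cdh1 read 8.85 and 8.74 (log2) in the ESC samples against 9.44, 9.45 and 9.35 after 48 hr in N2B27, detected throughout. Every N2B27 48 hr array was thus higher than both ESC arrays, by more than the SD within either group (0.073 and 0.057). The change was 0.62 ± 0.0947 (log2, SE), with an adjusted p of 0.00036. In the deposited intensities, before normalization, the groups overlapped, with 596 and 502 in ESC and 539, 755 and 760 in N2B27 48 hr, where replicate 1 was the dimmest array of all 5. When arrays were scaled to their medians instead, the change was 0.36 and did not pass (adjusted p = 0.378). It passed in the other 17 alternatives.

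P-cadherin moved the other way. The brightest of its 4 probes read 7.07 and 7.04 (log2) in ESC and 5.87, 5.83 and 6.04 in N2B27 48 hr, and was detected in every sample. The groups did not overlap, and Cdh3 was lower by 1.15 on the log2 scale (-1.15 ± 0.14, adjusted p = 7.0e-05). Of its other probes, one had 5.82 and 5.63 in ESC and 4.41, 4.46 and 4.70 in N2B27 48 hr, where only the last array was detected, which makes it at least 2.03-fold lower (adjusted p = 9.8e-05). Another was detected on both ESC arrays (5.24 and 4.94) and on 0 N2B27 48 hr arrays (4.30, 4.41 and 4.35), a fall of at least 1.33-fold (adjusted p = 0.0017). Both of these entered the fit through the ESC arrays, where they are high, so their fall adds little to that of the brightest probe. The remaining probe was detected on 0 arrays, with 4.46 and 4.47 in ESC and 4.19, 4.41 and 4.23 in N2B27 48 hr. Of the 4 probes, 2 cite one transcript record of Cdh3 and 2 the other, and a probe that fell stands under each.

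N-cadherin and VE-cadherin stayed below detection. The 4 probes of Cdh2, the cadherin of mesoderm and neural tissue, gave log2 signals from 4.22 to 4.46 in ESC and from 4.21 to 4.47 in N2B27 48 hr, with detection p-values no lower than 0.149 on any array. The probe of Cdh5, the cadherin of endothelial junctions, gave 4.24 and 4.22 in ESC and 4.28, 4.29 and 4.30 in N2B27 48 hr. These values lie at the level of undetected probes in both groups and show neither a rise nor silence of the genes. Without the detection filter the changes of the 4 Cdh2 probes were between -0.024 and 0.037, with adjusted p-values from 0.838 to 0.905, and that of Cdh5 was 0.059 (adjusted p = 0.456).

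Among the repressors Zeb1 fell. Its protein recruits CtBP corepressors to E-box sites in epithelial genes. Zeb1 read 7.49 and 7.25 (log2) in ESC and 5.35, 5.29 and 4.87 in N2B27 48 hr, where it was still above detection in every sample. Every N2B27 48 hr array was lower than both ESC arrays, by a mean of 2.20 (-2.20 ± 0.177, adjusted p = 3.1e-06), and this fall ranked 167 among the 1889 genes that fell. The change ran from -2.87 with an offset of 1 to -1.41 with no background correction and passed in all 18 alternatives.

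Zeb2, which encodes the related repressor SIP1 and acts in neural and neural crest development, was close to background. Its brighter probe read 4.43 and 4.32 in ESC, detected in neither sample, and 4.57, 4.93 and 4.80 in N2B27 48 hr, detected in the last 2. The groups did not overlap, but the change of 0.39 ± 0.148 missed the threshold (adjusted p = 0.0541). It passed in 9 of 14 alternatives that tested it, with adjusted p-values over these alternatives from 0.0084 to 0.342. Without N2B27 48 hr replicate 1 it was 0.53 (adjusted p = 0.0163), and without ESC replicate 1 or 2 it was 0.43 and 0.33 (adjusted p = 0.193 and 0.342). The probe entered the fit through the N2B27 48 hr arrays alone, where it is higher. The other Zeb2 probe was detected on 0 arrays, with signals from 4.24 to 4.43.

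Snai1, which encodes the SNAIL repressor of gastrulation, was not measurable at this signal. Of its 2 probes, one gave 4.25 and 4.34 in ESC and 4.27, 4.41 and 4.60 in N2B27 48 hr and was detected on 0 arrays. The other gave 4.74 and 4.26 in ESC and 4.47, 4.41 and 4.37 in N2B27 48 hr and was detected on ESC replicate 1 alone. The groups overlapped on both probes. Without the detection filter the changes were 0.13 and -0.084 (adjusted p = 0.396 and 0.740).

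Vimentin fell and Mmp2 rose, so the mesenchymal genes of the set did not move together. Vim, which encodes an intermediate filament protein of mesenchymal and many cultured cells, had log2 signals of 8.43 and 8.60 in ESC and of 7.71, 7.55 and 7.69 in N2B27 48 hr, detected on all arrays. The change was -0.86 ± 0.115 (adjusted p = 1.3e-04). Mmp2 had 6.23 and 6.53 in ESC and 7.59, 7.53 and 7.91 in N2B27 48 hr, also detected on all arrays. The change was 1.30 ± 0.155 (adjusted p = 6.2e-05), and it ranked 256 among the 2100 genes that rose. Neither gene's groups overlapped, and both calls held in all 18 alternatives, with changes from -1.11 to -0.74 for Vim and from 0.98 to 1.48 for Mmp2.

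**Figure D2:**
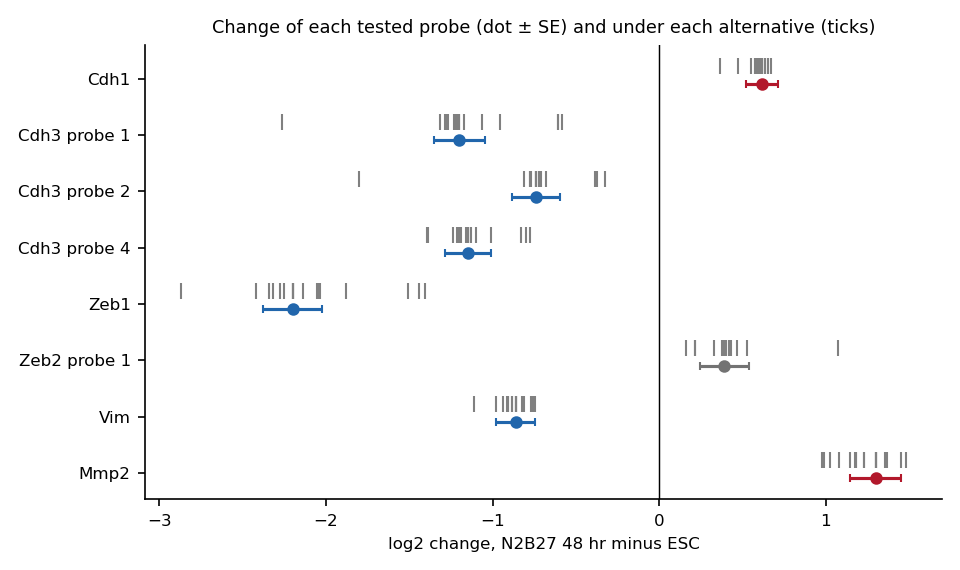
Log2 change (N2B27 48 hr minus ESC) of the 8 tested probes, as a dot with its standard error, coloured red where it rose, blue where it fell and grey where it did not pass, with a grey tick for its value under each alternative processing. Ticks and dots of each probe lie on 1 side of 0, and the spread of ticks is widest for the dim probes of Cdh3, for Zeb1 and for Zeb2.

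The distance between E-cadherin and the other genes was followed array by array, as the change in the difference of their log2 signals. Cdh1 minus Zeb1 came to 1.36 and 1.49 in ESC and to 4.10, 4.16 and 4.47 in N2B27 48 hr, and so widened by 2.82. For Cdh1 minus Cdh3 it widened by 1.77 (1.77 and 1.70 against 3.57, 3.62 and 3.31), and for Cdh1 minus Vim by 1.48 (0.42 and 0.15 against 1.73, 1.90 and 1.66). For Cdh1 minus Mmp2 it narrowed, from 2.62 and 2.21 to 1.86, 1.91 and 1.43, a change of -0.68. For Cdh1 minus Zeb2 the change was 0.23, but it rests on a Zeb2 probe not detected on 3 of the 5 arrays, both ESC arrays among them, and it turned to -0.44 with an offset of 1 and to -0.038 under median scaling. The groups did not overlap in any of these 5 differences, of which that with Zeb2 has no measured level in ESC behind it. For Zeb1, Cdh3 and Vim this had to be so, since Cdh1 rose and they fell, each without overlap. Those differences add nothing independent to the changes given above. The exact two-sided permutation test gave p = 0.2 for each of the 5 differences (adjusted p = 0.2), which is the smallest value that 2 arrays against 3 allow. The planned pair of Cdh2 and Vim had no value since Cdh2 was below detection.

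Other genes followed the same course over the 5 arrays. By Euclidean distance between log2 signals centred on each probe's mean, the genes most like Cdh1 were B4gat1, Lca5 and Armt1 (distances 0.0468, 0.0506 and 0.0555), which rose by 0.63, 0.63 and 0.61. Those most like Zeb1 were Smtnl2, Rpp25 and Mybl2 (0.124, 0.168 and 0.179), with changes of -2.30, -2.17 and -2.27. Those most like Cdh3 were Radil, Map1lc3a and Plod2 (0.105, 0.106 and 0.113). For Vim they were Epn2, Tmem253 and Ubtd1 (0.0768, 0.0911 and 0.104), and for Mmp2 Faah, Fign and Cmtm8 (0.126, 0.142 and 0.167). With 2 groups, likeness of this kind mostly reflects an equal difference between them.

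The genes around this set were read from 9 lists of cadherin relatives, junction partners, transcription factors, cofactors, epithelial and mesenchymal genes, proteases, filaments and signals. Of their 204 genes 184 had a probe and 102 were tested, of which 28 rose, 25 fell and 49 did not pass. That is 52.0% changed, beside 45.2% of all genes tested, and the median log2 change was 0.11. Genes below are given by their brightest tested probe, and a fold written as at least N-fold is a lower bound because the probe was not detected on some or all arrays of 1 group.

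**Figure D3:**
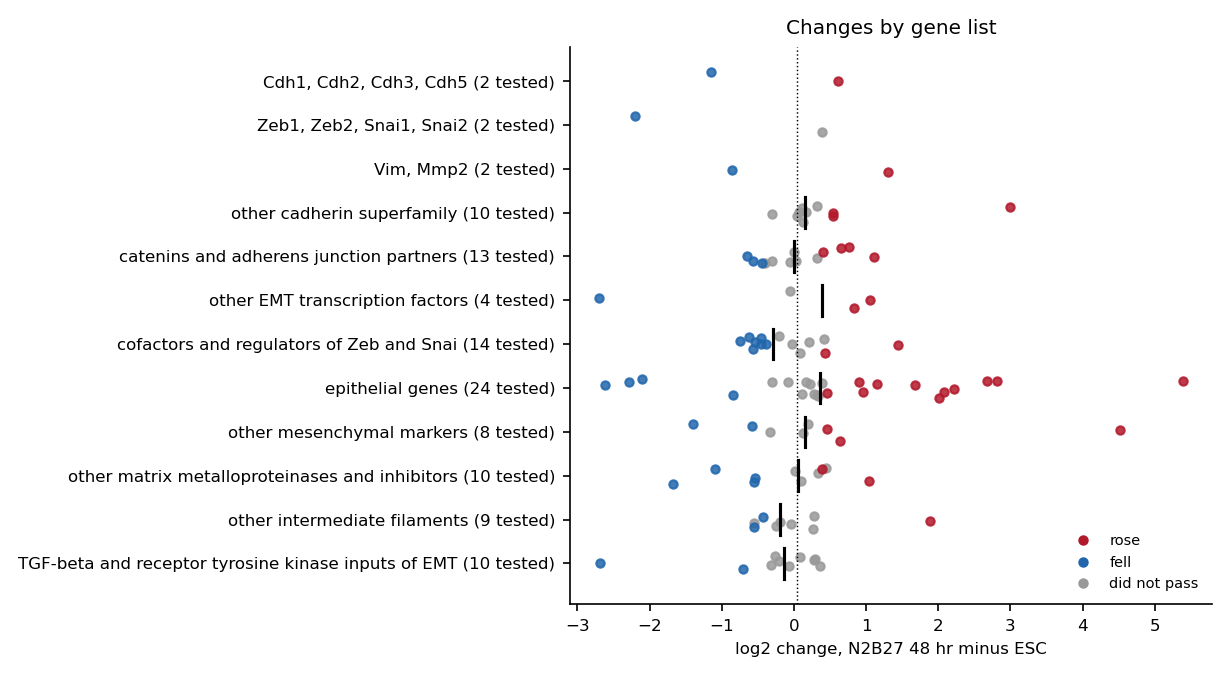
Log2 change (N2B27 48 hr minus ESC) of every tested gene of the set and of the 9 surrounding lists, 1 dot per gene, red where it rose, blue where it fell and grey where it did not pass, with a black bar at the median of each list of more than 2 tested genes and a dotted line at the median of all genes (0.049). The epithelial genes reach furthest to the right, with 11 of 24 that rose, beside 23.8% of all genes tested.

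Among other members of the cadherin superfamily 34 of 40 had a probe, 19 were detected on 0 arrays and 10 were tested, of which 3 rose and 0 fell at an adjusted p under 0.05 in limma (median 0.15). The largest of the 3 rises was that of the protocadherin gene Pcdh1, at least 6.85-fold (adjusted p = 2.6e-07), and its second probe rose by 1.51. Celsr3 and Celsr2, atypical cadherins of planar cell polarity, rose by 0.55 each. Both calls ended without ESC replicate 1 (adjusted p = 0.0792 and 0.187), without ESC replicate 2 (0.0514 and 0.083) and under median scaling (0.437 and 0.0891), and that of Celsr2 also without the detection filter (0.0606). The desmosomal cadherin gene Dsg2 did not pass (0.11, adjusted p = 0.581), and Cdh11, the cadherin of mesenchymal cells, was detected on 0 arrays. Under cyclic loess 3 rose and 1 fell, and under median scaling or without either ESC array 1 rose and 0 fell.

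Among catenins, which tie cadherins to the cytoskeleton, and other partners of adherens junctions, 4 genes rose, 3 fell and 6 did not pass of 13 tested (median 0.0034). Under median scaling 1 rose and 4 fell (median -0.17), and the 4 rises were all of partners (Vcl, Pkp2, Nectin2 and Nectin3) and not of catenin genes. Beta-catenin, encoded by Ctnnb1, had a change of 0.0034 ± 0.119 (adjusted p = 0.986), with mean log2 signals of 10.84 ± 0.0891 (SD, n = 2) in ESC and 10.85 ± 0.224 (SD, n = 3) in N2B27 48 hr, and its sign turned in 6 of the 18 alternatives, among them median scaling (-0.17), cyclic loess (-0.091) and the replicate block (-0.10). Alpha-catenin, encoded by Ctnna1, fell by 0.56 (-0.56 ± 0.0769, adjusted p = 1.6e-04), and the related Ctnnal1 fell by 0.65. Vcl, which encodes vinculin and reinforces junctions under tension, was 2.16-fold higher (1.11 ± 0.0904, adjusted p = 3.4e-06). Pkp2, a plakophilin of desmosomes, and Nectin2, an immunoglobulin-like junction protein, rose by 0.77 and 0.66, and median scaling ended both calls (adjusted p = 0.167 and 0.300). Each has 3 probes, and all of them rose. Nectin3 rose by 0.40 (adjusted p = 0.0149). Its call was lost under median scaling (0.15, adjusted p = 0.760) and under cyclic loess (0.28, adjusted p = 0.0707). It also ended without N2B27 48 hr replicate 2 (0.39, adjusted p = 0.0503) and without ESC replicate 1 or 2 (changes of 0.36 and 0.43). The probes of Ctnnd1 and Jup, which encode p120-catenin and plakoglobin, were detected on 0 arrays.

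Other transcription factors of the transition were mostly below detection. Of 17 listed 15 had a probe and 4 were tested, while Twist2, Foxc1, Foxc2, Sox4, Sox9, Hmga2, Gata4 and Gata6 were detected on 0 arrays. Snai3, the remaining Snail family gene, was 2.07-fold higher, with log2 signals of 5.25 ± 0.0597 (SD, n = 2) in ESC and 6.30 ± 0.137 (SD, n = 3) in N2B27 48 hr (adjusted p = 2.2e-04). Tcf12, which encodes an E protein that binds E-boxes, was 1.78-fold higher (adjusted p = 0.0016). The homeobox gene Gsc was at least 5.31-fold lower, and Tcf4 did not pass (-0.053, adjusted p = 0.806). The list had 2 genes that rose, 1 that fell and a median of 0.39.

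Cofactors and regulators of the ZEB and SNAIL proteins numbered 14 tested, of which 2 rose, 7 fell and 5 did not pass (median -0.29), beside 23.8% that rose and 21.4% that fell over all genes. Whether the list differs from other genes was not tested. The deacetylase gene Hdac2 fell by 0.54 (adjusted p = 0.0022) and the histone demethylase gene Kdm1a by 0.38 (adjusted p = 0.0025), both partners of SNAIL at its targets. The call of Kdm1a was lost under median scaling (-0.57, adjusted p = 0.0996). Mdm2, a ubiquitin ligase gene, and Wtip, an LIM protein gene of the Ajuba family, fell by 0.74 and 0.62. Limd1, a relative of Wtip, was 2.71-fold higher (1.44 ± 0.22, adjusted p = 3.6e-04), while Ajuba itself did not pass (adjusted p = 0.269). Ctbp1, which encodes a corepressor of ZEB1, was detected on 0 arrays. Under median scaling 1 rose and 5 fell, and without ESC replicate 2 1 rose and 4 fell.

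Epithelial genes, many of them described as targets of ZEB or SNAIL, included Esrp1, the largest fitted rise in the 9 lists, ahead of Acta2 and Pcdh1 from other lists. Of 30 listed 27 had a probe and 24 were tested, of which 11 rose, 4 fell and 9 missed the threshold. Over all genes 23.8% rose and 21.4% fell, and whether the list differs from other genes was not tested. The median log2 change of the list was 0.36. Krt18, Cldn3 and Marveld3 were detected on 0 ESC arrays, and Grhl3 and Muc1 on 0 N2B27 48 hr arrays. They entered the fit through the group where they are high. Cldn6, a tight junction claudin, was 6.38-fold higher, with log2 signals of 7.64 ± 0.0050 (SD, n = 2) in ESC and 10.32 ± 0.0655 (SD, n = 3) in N2B27 48 hr (adjusted p = 6.6e-09). Esrp1, an epithelial splicing regulator, rose by 5.39 on the log2 scale (41.9-fold, adjusted p = 4.2e-10). Rab25, a trafficking GTPase of epithelia, was 4.65-fold higher (2.22 ± 0.162, adjusted p = 1.5e-06), and Ap1m2, the epithelial clathrin adaptor subunit gene, was at least 3.18-fold higher, with a rise by all 4 of its probes. Grhl2, a grainyhead factor, was at least 6.92-fold higher, whereas its relative Grhl3 fell at least 3.13-fold (adjusted p = 6.2e-07). The polarity gene Llgl2 fell by 2.61 (6.11-fold, adjusted p = 9.1e-09), and the ETS factor gene Elf3 fell by 2.28 (4.87-fold), with another probe that fell by 0.82 and one that did not pass (-0.46). Muc1, a mucin gene, fell at least 1.53-fold. The junction genes Tjp1, Ocln, Cldn4 and Cldn7 did not pass (adjusted p = 0.740, 0.387, 0.155 and 0.247), but Ocln and Cldn7 did without N2B27 48 hr replicate 1 (0.58 and 0.62, adjusted p = 0.022 and 0.0084). With detection required on all arrays 6 rose and 2 fell among 12 tested. Without ESC replicate 1 or 2 the genes tested numbered 22. Grhl3 and Muc1, detected on the ESC arrays alone, then missed the detection filter and were not tested.

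The promoter windows of these genes were searched for the E-box letters that ZEB and SNAIL proteins are known to bind, CACCTG on the strand of the gene or on the opposite one, where they read CAGGTG. The windows run from 250 bases before to 50 bases after the annotated start, from RefSeq on the build GRCm38.p6, and 3 of the 10 genes of the set, Snai1, Vim and Zeb2, and 16 of the 24 tested epithelial genes matched a window. Cdh1, Esrp1 and Grhl2 matched no window, so the E-cadherin promoter was not searched. The letters were present in the window of Snai1 and in none of those of Vim and Zeb2. They were present for 14 of the 16 epithelial genes (87.5%), against 22.6% of all 27025 genes with a window. Many genes of the list were chosen as described targets of ZEB or SNAIL, so this share is no independent observation. It was 7 of 8 among genes that rose, 3 of 3 among those that fell and 4 of 5 among those that did not pass, groups too small to set against each other. A match is a run of letters and not a measured binding site. The windows printed are those of Snai1 and Vim, of 3 epithelial genes that rose (Ap1m2, Rab25 and Cldn6) and of 1 that fell (Grhl3), with the E-box letters in capitals.
Snai1: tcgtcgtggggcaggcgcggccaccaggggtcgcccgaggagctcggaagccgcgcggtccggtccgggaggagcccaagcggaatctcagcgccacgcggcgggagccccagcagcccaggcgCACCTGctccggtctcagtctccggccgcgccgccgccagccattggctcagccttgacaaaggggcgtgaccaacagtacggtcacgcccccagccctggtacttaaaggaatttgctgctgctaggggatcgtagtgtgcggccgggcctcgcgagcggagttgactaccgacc
Vim: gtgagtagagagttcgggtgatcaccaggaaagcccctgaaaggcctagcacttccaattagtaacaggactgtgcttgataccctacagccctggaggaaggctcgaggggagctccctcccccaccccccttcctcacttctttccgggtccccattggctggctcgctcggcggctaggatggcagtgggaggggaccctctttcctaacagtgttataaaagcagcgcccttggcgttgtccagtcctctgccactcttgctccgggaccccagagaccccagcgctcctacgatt
Ap1m2: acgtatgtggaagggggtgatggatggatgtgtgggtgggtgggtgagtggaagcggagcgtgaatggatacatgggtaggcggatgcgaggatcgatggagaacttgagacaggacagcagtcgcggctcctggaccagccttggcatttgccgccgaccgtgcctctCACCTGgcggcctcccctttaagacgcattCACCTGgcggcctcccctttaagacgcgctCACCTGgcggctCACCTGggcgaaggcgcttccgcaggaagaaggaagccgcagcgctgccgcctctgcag
Rab25: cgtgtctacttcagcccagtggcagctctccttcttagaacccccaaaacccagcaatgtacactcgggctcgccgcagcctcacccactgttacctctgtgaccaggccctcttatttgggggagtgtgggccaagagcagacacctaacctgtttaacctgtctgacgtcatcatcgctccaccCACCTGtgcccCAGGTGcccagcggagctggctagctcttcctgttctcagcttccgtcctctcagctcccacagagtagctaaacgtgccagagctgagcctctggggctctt
Cldn6: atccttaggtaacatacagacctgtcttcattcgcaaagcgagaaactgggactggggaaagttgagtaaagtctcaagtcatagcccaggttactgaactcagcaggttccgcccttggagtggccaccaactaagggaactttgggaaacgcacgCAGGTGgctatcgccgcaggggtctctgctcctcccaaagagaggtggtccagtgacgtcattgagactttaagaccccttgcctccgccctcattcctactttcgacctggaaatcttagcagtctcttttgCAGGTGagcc
Grhl3: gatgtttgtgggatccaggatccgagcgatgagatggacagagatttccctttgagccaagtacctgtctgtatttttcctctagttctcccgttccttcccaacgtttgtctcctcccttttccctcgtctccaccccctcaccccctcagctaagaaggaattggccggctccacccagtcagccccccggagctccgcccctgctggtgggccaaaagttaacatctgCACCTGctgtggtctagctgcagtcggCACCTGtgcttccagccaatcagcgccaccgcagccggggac
On GRCm38.p6 these windows are chr2:167537945-167538244 (plus strand) for Snai1, chr2:13574061-13574360 (plus strand) for Vim, chr9:21312284-21312583 (minus strand) for Ap1m2, chr3:88548230-88548529 (minus strand) for Rab25, chr17:23679115-23679414 (plus strand) for Cldn6 and chr4:135573583-135573882 (minus strand) for Grhl3. In Snai1 the letters begin 126 bases before the start. Ap1m2, which rose, has 4 such runs, and Grhl3, which fell, has 2.

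**Figure D4:**
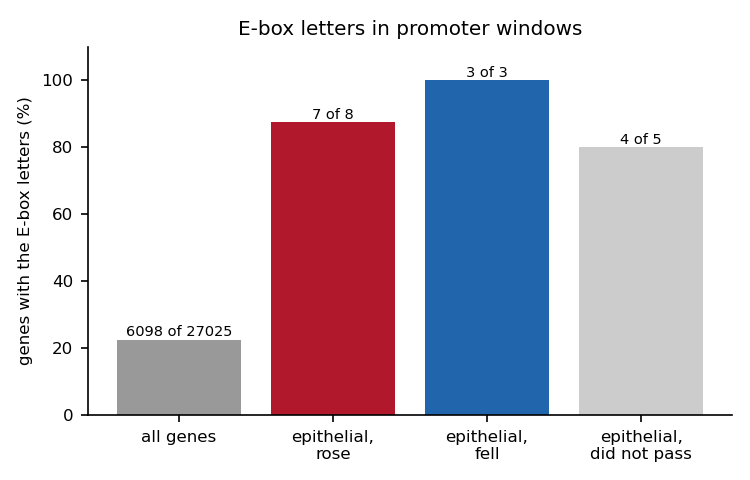
Share of genes whose promoter window holds the E-box letters on either strand (bars, in percent of genes, axis from 0), for all 27025 genes with a window and for tested epithelial genes that rose, fell or did not pass, with counts above the bars. All 3 epithelial groups stand between 80% and 100%, above the 22.6% of all genes.

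Mesenchymal markers beside Vim and Mmp2 went both ways, with 3 that rose, 2 that fell and 3 that did not pass among 8 tested of 22 (median 0.16). The receptor kinase gene Axl was 2.64-fold lower (-1.40 ± 0.141, adjusted p = 1.7e-05), and the collagen gene Col5a1 fell by 0.58, a call that ended when ESC replicate 2 was left out (-0.51, adjusted p = 0.0976). Acta2, which encodes smooth muscle actin, rose by at least 18.3-fold on its brightest probe, while 2 others rose by 1.66 and 0.86 and 1 did not pass (0.35). The galectin gene Lgals1 rose by 0.64 (adjusted p = 0.0104), but not without ESC replicate 1 or 2 (adjusted p = 0.0666 and 0.0746) or under median scaling (0.293), and without either ESC array 1 gene of this list rose. Tagln, Col1a1, Col1a2, Col3a1, Postn and Lox were among the 11 genes detected on 0 arrays.

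Of other metalloproteinases and their inhibitors 10 of 25 were tested, and 2 rose, 4 fell and 4 did not pass (median 0.056). The calls of Mmp23 (0.39), Reck (-0.56) and Mmp17 (-0.54) were lost without ESC replicate 1 or 2. That of Mmp23 was also lost when any single N2B27 48 hr array was left out. It ended too under median scaling (adjusted p = 0.261), with no background correction (0.0708) and with the authors' values (0.0669). That of Reck also ended without the detection filter (adjusted p = 0.0604) and without N2B27 48 hr replicate 2 or 3 (0.114 and 0.0535). The inhibitors parted, since Timp3 was 2.05-fold higher (1.04 ± 0.153, adjusted p = 2.8e-04) and Timp1 was 2.13-fold lower (-1.09 ± 0.116, adjusted p = 2.7e-05) by its brighter probe and lower by the other. Mmp11, a stromelysin gene, fell at least 3.04-fold (adjusted p = 1.2e-05). Mmp14, the membrane enzyme that activates MMP2, did not pass (0.44 ± 0.183, adjusted p = 0.0738). Among other intermediate filament genes 1 of 9 tested rose and 2 fell (median -0.19). The 2 that fell were Nefh (-0.55) and Sync (at least 1.12-fold). Without ESC replicate 1 or 2 the call of Nefh ended (changes of -0.66 and -0.42), and Sync was no longer tested. The Nefh call also ended without N2B27 48 hr replicate 1 (-0.58, adjusted p = 0.052). That of Sync ended without N2B27 48 hr replicate 2 or 3 (adjusted p = 0.0724 and 0.0627). It also ended with the replicate block (adjusted p = 0.0858). Lmna (-0.55, adjusted p = 0.0507) passed as lower in 9 alternatives and on 2 of its other probes. The neuronal filament gene Ina rose 3.70-fold (1.89 ± 0.144, adjusted p = 2.0e-06), while Nes, the filament gene of neural progenitors, did not pass (-0.045, adjusted p = 0.880).

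Of the TGF-beta and receptor tyrosine kinase inputs, 0 rose and 2 fell among 10 tested in limma (median -0.14). Pdgfa, a platelet-derived growth factor gene, was 6.46-fold lower (-2.69 ± 0.144, adjusted p = 1.3e-07). Smad3, which carries the TGF-beta signal, fell by 0.71 (adjusted p = 0.0179), a call that ended without ESC replicate 2 (-0.47, adjusted p = 0.224) and without N2B27 48 hr replicate 2 (-0.53, adjusted p = 0.0655). Smad2, Smad4 and the receptor genes Tgfbr1 and Tgfbr2 did not pass (adjusted p = 0.652, 0.0842, 0.709 and 0.169), though Smad4 rose without N2B27 48 hr replicate 1 (0.39, adjusted p = 0.0118). Tgfb1, detected on 1 N2B27 48 hr array, did not pass either (-0.32, adjusted p = 0.176). It passed as lower under median scaling (-0.45, adjusted p = 0.0311), without N2B27 48 hr replicate 1 (-0.54, 0.0135) and with array weights (-0.41, 0.0294). Egfr passed as higher with no variance trend (0.36, adjusted p = 0.0422).

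Markers of the labelled cells and of other cell types were read beside these results. All 13 embryonic stem cell markers were tested, of which 11 fell and 2 rose. The falls ran from 33.6-fold for Nanog to 1.36-fold for Pou5f1, whose call ended under median scaling (adjusted p = 0.0613). Sall4 fell 1.49-fold, and Utf1 and Lin28a rose 3.98-fold and 3.04-fold. The summed background-corrected signal of the 13 was 17050.5 to 17099.9 on the ESC arrays and 5128 to 5420 on the N2B27 48 hr arrays. Such sums weigh the brightest probes most, and levels of different probes are not comparable. Of 13 fibroblast markers with a probe 4 were tested, and 3 rose and 1 fell. Acta2 (at least 18.3-fold), Thy1 (4.92-fold) and Dcn (at least 2.84-fold) rose, and Fbln2 fell (at least 1.48-fold). The summed signal of the 13 rose from 93.4 to 111 in ESC to 638 to 928 in N2B27 48 hr. Acta2 and Thy1 were the brightest tested genes there (mean log2 8.80 and 7.89) and weigh most in that sum. The other Acta2 probes changed by 1.66, 0.86 and 0.35, of which the last did not pass. The defining genes Col1a1, Col1a2, Col3a1, Pdgfra, Pdgfrb and Postn were detected on 0 arrays. The part of fibroblasts in the rise of Mmp2 was not tested, and Acta2 stands in both this list and that of mesenchymal markers. Of 9 endothelial markers with a probe, with a summed signal of 818 to 822 in ESC and 888 to 1127 in N2B27 48 hr, 6 were tested. Flt1 (at least 1.87-fold) and Egfl7 (0.54) rose and Tek fell (-1.15), with the call of Egfl7 lost under median scaling (adjusted p = 0.438). Tie1, Emcn and Erg were detected on 0 arrays, as was Cdh5. Of 9 primitive streak and mesoderm markers with a probe 2 were tested, and Evx1 fell (-0.59), while Eomes, Mesp1 and Tbx6 were detected on 0 arrays. The call of Evx1 ended when either ESC array was left out (adjusted p = 0.0805 and 0.0677). Among extraembryonic endoderm genes Gata4, Gata6, Sox17 and Foxa2 were detected on 0 arrays, and 1 of 5 tested rose and 1 fell. Among neural and neural crest genes Sox1, Pax6 and Foxd3 were detected on 0 arrays, and 0 of 2 tested rose and 1 fell in limma. The arrays had 42.1% to 47.5% of probes detected and mean signals from 187 to 264, the lowest on N2B27 48 hr replicate 1.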

How the data were processed

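Expression was measured on Illumina mouse bead arrays, 1 per sample, in ESC (n = 2) and N2B27 48 hr (n = 3). The deposited intensity values are bead averages, not normalized between arrays, and a deposited column of detection p-values stands beside each. The submitters' processing notes name BeadStudio. Its version and any background subtraction are not given in the sources used here. A second deposited table holds normalized intensity values from the authors. Background was corrected by normexp in limma 3.58.1 (R 4.3.3), with the negative-control mean (57.0 to 60.0) and SD inferred from the detection p-values. An offset of 16 was added, and log2 values were quantile normalized. Probes with a detection p under 0.05 on at least 2 arrays, 12605 of 25697, entered lmFit and eBayes (with trend), two-sided, with Benjamini-Hochberg adjustment over them and a cutoff of 0.05 on the adjusted p. An error after ± is the standard error unless SD is written. The pipeline was tested on simulated data. The number of arrays limits the precision.

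Of the probes 23978 have 1 symbol in the platform annotation, and 23962 matched a RefSeq gene of GRCm38.p6 by identifier. A gene stands for its brightest tested probe. A lower bound sets the group with signal against the higher of the dim probe's own value and the lowest detected signal of each array. The genes of the set and the lists were chosen with earlier results of these data known. All genes of the set were to be named, and from each list up to 4 changed genes in each direction and up to 2 that did not pass, not all of which are printed. Others named as undetected or not passed were chosen after their values were seen. Alternatives covered background correction, offset, scaling, the authors' values, the detection filter, each array left out, the replicate number as a block, the variance trend and array weights. Figures were drawn with matplotlib 3.10.9.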

Additional observations from a re-analysis of the deposited data

How the results depend on the processing

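The genes of the set that fell numbered 3 in all 18 alternatives and those that rose 2 or 3, with Zeb2 added in 9 of them. Over all genes, 2100 rose and 1889 fell. Median scaling gave 760 and 1802 (29.7% of calls upward, against 52.6%) and moved the median change of all genes from 0.049 to -0.11, and with it Cdh1 was lost. Leaving out 1 array gave 1272 to 2229 genes that rose and 1068 to 2005 that fell, the fewest without ESC replicate 1 (1327 and 1078) or 2 (1272 and 1068), where the remaining ESC array was taken to have the spread of N2B27 48 hr. The change in the difference of Cdh1 and Zeb2 turned to -0.44 with an offset of 1 and to -0.038 under median scaling, and the cause was not tested. Same-numbered arrays of the 2 groups showed no shared deviation (r = -0.085 and -0.028). The deviations of the 2 ESC arrays mirror each other, so this cannot decide whether the numbers mark pairs. With the replicate block 2 genes of the set rose and 3 fell, and 2330 and 2024 over all genes. Probes at background, those of Cdh2, Cdh5 and Snai1, bear on no change.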
